A study of Mus musculus with 2 samples.

Results

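SR proteins and heterogeneous nuclear ribonucleoproteins (hnRNPs) are RNA-binding proteins that act together on splice sites, and their genes were described here in mouse calf muscle. The genes were taken by name: every symbol beginning with Srsf and a digit, every symbol beginning with Hnrnp, and Tra2a and Tra2b, provided that the gene has a protein-coding transcript. This gave 33 genes of the 21901 with such a transcript and of 55536 in the gene table. They are 13 SR genes (11 Srsf genes, Tra2a and Tra2b) and 20 hnRNP genes. The -ps symbols Hnrnpa1l2-ps and Hnrnpa1l2-ps2 were left out and were at 0 TPM in both libraries. Total RNA of the gastrocnemius was sequenced after ribosomal RNA had been reduced, with 300 ng as input and ERCC RNAs added. The 2 libraries came from 2-month-old female B6CASTF1/J mice, an F1 cross of B6 and CAST, with no treatment named. They are biological replicates 1 and 2 of 1 group and are called animal 1 and animal 2. The labels give both the same donor record and do not say whether it stands for the strain or a mouse, so the spread between them may be technical.

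SR proteins bind exonic enhancers through RNA recognition motifs and recruit U1 and U2 particles through a domain rich in arginine and serine, which SRPK and CLK kinases phosphorylate. Many hnRNPs bind silencers in exons and introns and act against SR proteins at the same sites, and others bind U-rich, C-rich, CA-rich or G-rich runs. In mouse and human, many of these genes limit their own protein by splicing their RNA into a form with an early stop codon, which nonsense-mediated decay (NMD) degrades, or by keeping an intron. An exon that brings such a stop is called a poison exon. A gene's RNA level in muscle can therefore include transcripts that make no full-length protein.

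GENCODE M21 marks such forms by transcript type. The 33 genes have 296 annotated transcripts, of which 157 are not of the protein_coding type but of the types nonsense_mediated_decay, retained_intron or processed_transcript. The 39 NMD transcripts belong to 21 of the genes. Each one's stop codon was placed against the transcript of the same gene with the longest coding sequence. In 8 SR genes (14 transcripts) the stop lay in an extra exon, one that overlaps no exon of that longest form, and the same held for 2 hnRNP genes (2 transcripts). In 1 SR gene (2 transcripts) and 4 hnRNP genes (8 transcripts) the full-length stop was used, with introns spliced out after it. The remaining 3 transcripts of 2 SR genes and 10 transcripts of 6 hnRNP genes had another stop in a shared exon. These counts describe annotation and were not made over all genes.

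The extra exons of the genes in which such NMD transcripts together took 10% or more of the TPM are shown from the start of the exon to the stop codon, because they hold what the NMD transcript adds to the longest form up to its stop. Each runs 5′ to 3′ on the transcript strand, from the GENCODE M21 transcripts (mm10), with the annotated stop codon in capitals.
Tra2b-206: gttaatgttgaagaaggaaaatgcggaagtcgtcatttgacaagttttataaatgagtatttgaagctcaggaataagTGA
Tra2a-202: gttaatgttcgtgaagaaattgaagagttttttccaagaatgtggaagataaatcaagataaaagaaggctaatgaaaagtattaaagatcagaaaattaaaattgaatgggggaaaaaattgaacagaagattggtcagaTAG
Srsf3-201: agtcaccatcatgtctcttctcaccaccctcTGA
Srsf4-204: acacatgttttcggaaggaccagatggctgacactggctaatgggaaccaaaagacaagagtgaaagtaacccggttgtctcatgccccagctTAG
Srsf6-201: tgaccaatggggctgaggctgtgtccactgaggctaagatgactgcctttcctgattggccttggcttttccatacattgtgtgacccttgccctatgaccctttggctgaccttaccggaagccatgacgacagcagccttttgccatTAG
Srsf9-205: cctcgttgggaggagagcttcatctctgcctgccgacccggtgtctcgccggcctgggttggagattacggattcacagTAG
Hnrnpll-203: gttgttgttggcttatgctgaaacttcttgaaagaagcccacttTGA

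The Tra2b stretch is 81 nt at chr16:22259181-22259261 on the minus strand, within a 276 nt exon 2. The Tra2a stretch is 144 nt at chr6:49252965-49253108 on the minus strand, within a 306 nt exon 2. In both Tra2 genes 36 coding bases precede the extra exon, and both stretches open with the same 9 bases, GTTAATGTT. The motif GAAGAA, a form of the GAA-rich element that Tra2 proteins are known to bind, was searched on the transcript strand only. It occurred 1 time in the Tra2b stretch and 1 time in the Tra2a stretch, and in none of the other 9 extra-exon stretches tested among these genes. Of internal exons of protein-coding transcripts at least as long, 9.36% hold it in their first 81 nt and 14.6% in their first 144 nt. At the lengths of the other 9 stretches, 23 to 152 nt, 2.55% to 15.1% of such exons hold it, so a stretch without it is the usual case. A match describes letters only.

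The Srsf3 stretch is 34 nt at chr17:29039454-29039487 on the plus strand, in a 456 nt exon 4. The Srsf6 stretch covers 152 nt of a 268 nt exon 3 at chr2:162932815-162932966, plus strand, and the Srsf9 stretch 82 nt of a 358 nt exon 2 at chr5:115328347-115328428, plus strand. The Srsf4 and Srsf9 transcripts are annotated without their coding start, and their stops are in frame by the annotated phase. In Srsf4-204 the exon is the first of its annotated transcript (96 nt shown, chr4:131884295-131884390, plus strand). In Srsf4-203, the gene's other NMD transcript, it is a 207 nt exon 2 with 115 nt up to the same stop. There it starts at chr4:131884276, so the stretch shown lacks its first bases. Srsf4-203 took a mean of 4.12% of the gene and Srsf4-204 6.71%, and 7.66% and 4.72% in the second transcript table. The Hnrnpll stretch is 47 nt of an 83 nt exon 7 at chr17:80044976-80045022, minus strand. The Srsf6 extra exon is also in a shorter transcript typed as protein_coding, so it is extra to the longest form only.

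Transcript abundance is given in TPM, a level scaled for transcript length to a fixed total, from the authors' deposited tables. Of the 33 genes, 32 stood at 1 TPM or more in both animals and 27 at 10 TPM or more. Srsf12 had no read in either library, where 3 counts would equal 0.0281 and 0.0264 TPM in animals 1 and 2. The second transcript table lists it at 0 and 0.0574 TPM in animals 1 and 2. Among detected genes, the median of the 12 SR genes was 14.9 TPM and that of the 20 hnRNP genes 33.3 TPM, beside 7.75 TPM over the 10214 detected nuclear protein-coding genes. Of the detected genes of both families, 30 were above that median. All 33 genes together took 0.268 ± 0.0019% of nuclear protein-coding TPM (SD, n = 2), with 0.0584 ± 0.0021% on SR genes and 0.210 ± 0.0002% on hnRNP genes. As a bulk measurement, the level does not tell fewer cells of a type from less RNA per cell.

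**Figure D1:**
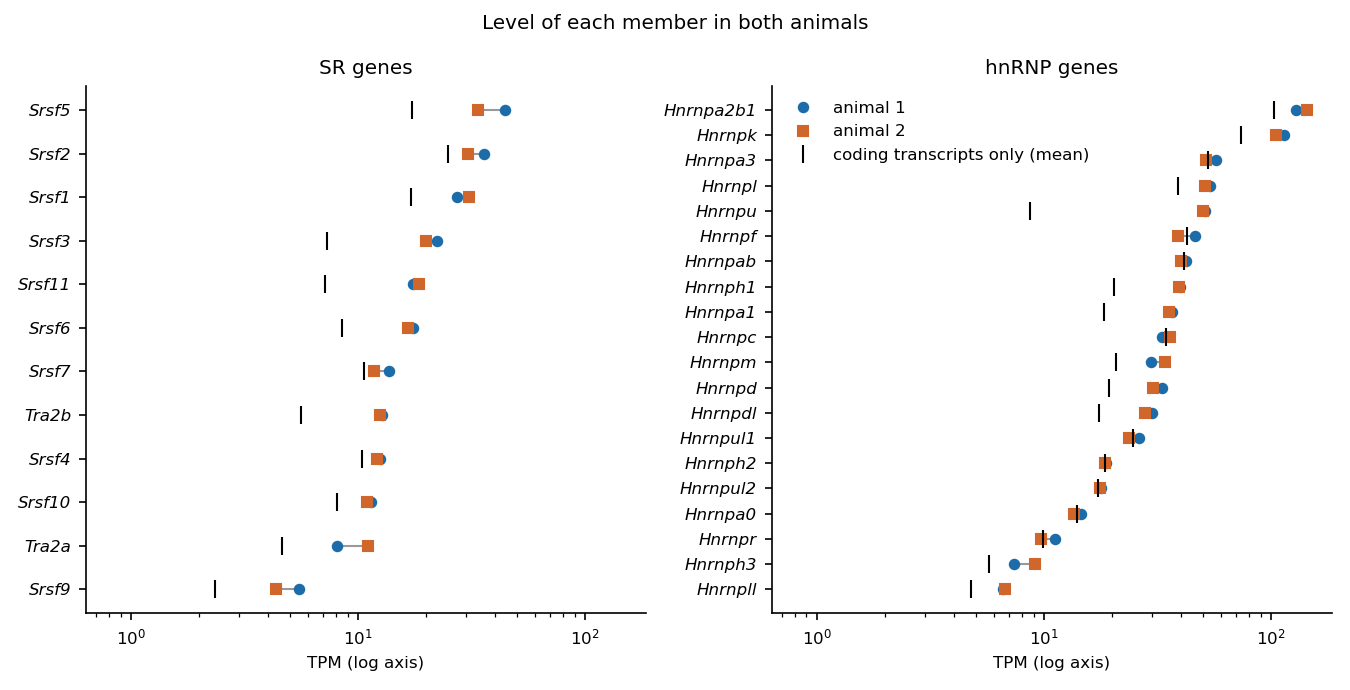
TPM (log axis) of each detected SR gene (left) and hnRNP gene (right) in animal 1 (circles) and animal 2 (squares), with a tick at the mean TPM of the protein-coding transcripts alone; Srsf12, at 0, is not drawn. Hnrnpa2b1 and Hnrnpk stand above 100 TPM, and the tick of Hnrnpu lies far below its gene level.

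Among the classical SR proteins, Srsf5 was the highest, with 44.2 TPM in animal 1 and 33.6 TPM in animal 2. Srsf2, once called SC35 and found in nuclear speckles, had 36.0 and 30.4 TPM in animals 1 and 2. Srsf1, the prototype of the family, had 27.3 and 30.8 TPM in animals 1 and 2. The order of these 3 thus differed between the animals, and the range of each overlapped with that of the next gene in the list of all members. Srsf3, which links splicing to mRNA export, had 22.3 TPM in animal 1 and 19.9 TPM in animal 2. Srsf11 followed with 17.4 and 18.6 TPM in animals 1 and 2, and Srsf6 with 17.5 and 16.5 TPM. Srsf7, Tra2b, Srsf4 and Srsf10 lay between 11.0 and 13.6 TPM in every library.

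At the low end, Tra2a, a partner of SR proteins at GAA-rich enhancers, had 8.06 TPM in animal 1 and 11.0 TPM in animal 2. Srsf9 had 5.51 and 4.34 TPM in animals 1 and 2, from 219 and 205 reads. The low hnRNP genes were Hnrnph3, with 7.37 and 9.09 TPM in animals 1 and 2, and Hnrnpll, with 6.60 and 6.71 TPM. Hnrnpll is the paralogue of Hnrnpl and is known for its part in splicing in lymphocytes. The members under 10 TPM on average were therefore these 4 and Srsf12.

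Of the A/B-type hnRNPs, which bind silencers and package new RNA, Hnrnpa2b1 was the highest gene of all, with 128 TPM in animal 1 and 143 TPM in animal 2. It lies at chr6:51460932-51469894 (mm10) on the minus strand. Hnrnpa3 had 57.2 and 51.6 TPM in animals 1 and 2, and Hnrnpab 42.2 and 40.1 TPM. Hnrnpa1, the best known antagonist of SR proteins, came only to the tenth place, with 36.7 and 35.4 TPM in animals 1 and 2. Relative to the count, its posterior SD was the largest of all members, 2.26% in animal 1 and 2.45% in animal 2. Hnrnpa3 (1.30% and 1.87% in animals 1 and 2), Srsf3 (1.01% and 0.908%) and Tra2b (0.979% and 0.991%) came next.

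Hnrnpk, which binds C-rich RNA through KH domains, ranked second with 114 TPM in animal 1 and 105 TPM in animal 2. Hnrnpl, a CA-repeat binder, had 54.0 and 51.4 TPM in animals 1 and 2. Hnrnpu, also known as scaffold attachment factor A, had 51.1 and 50.2 TPM. Of the group that binds runs of G, Hnrnpf had 46.2 and 38.8 TPM in animals 1 and 2 and Hnrnph1 39.8 and 39.2 TPM. Hnrnpc, Hnrnpm, Hnrnpd, Hnrnpdl, Hnrnpul1, Hnrnph2, Hnrnpul2, Hnrnpa0 and Hnrnpr lay between 9.69 and 35.9 TPM in every library. The order below Hnrnpk was loose: 17 of 32 neighbouring pairs in the list overlapped in range, and Hnrnpa2b1 and Hnrnpk overlapped with no other member.

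Ranked by the TPM of protein-coding transcripts alone, the list changed. Hnrnpu dropped to place 23, with 8.38 TPM in animal 1 and 8.91 TPM in animal 2. Srsf5 stood at place 17, with 21.8 and 12.9 TPM of coding transcripts in animals 1 and 2. Protein-coding transcripts held 58.1% of the TPM of SR genes in animal 1 and 54.3% in animal 2. For hnRNP genes the coding part was larger, 74.1% in animal 1 and 74.5% in animal 2. The protein_coding type also covers short transcripts, so the coding part is not all full-length mRNA. The 485 nt Hnrnpk-223 held 33.6% and 34.6% of Hnrnpk in animals 1 and 2. In the second transcript table it held 19.0% and 4.7e-06%. The 493 nt Hnrnpd-210 held 38.0% and 41.8% of Hnrnpd, and 14.7% and 11.1% in the second table.

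The non-coding share of a gene is the percent of its TPM on transcripts of any type other than protein_coding, which includes NMD transcripts although these hold a reading frame. The members' median was 29.4% over 32 detected genes, against 7.32% over all 10214 detected nuclear protein-coding genes. SR genes had a median of 50.3% (12 genes) and hnRNP genes 25.2% (20 genes). The hnRNP median was lower by other measures, 15.3% in the second transcript table and 12.9% by expected counts, where that of SR genes was 50.2% and 38.1%. With NMD transcripts counted as coding, the medians were 25.0% for SR genes and 2.70% for hnRNP genes. A share over 50% was found for 7 of 32 members, against 7.44% of all detected genes and 9.09% of those with a non-coding transcript annotated. The 7 were 6 of 12 SR genes and 1 of 20 hnRNP genes, so hnRNP genes were not above those levels. Annotation bears on these shares directly, since a detected member has a median of 4 annotated non-coding transcripts and a detected gene overall 2. Among genes with 4 or more, the median share was 36.6% for 18 members and 22.8% for all 3498, and 5 of those members were over 50%, against 14.9% of all. Of the 5, 4 were among 8 SR genes and 1 among 10 hnRNP genes. No test was made of these differences.

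**Figure D2:**
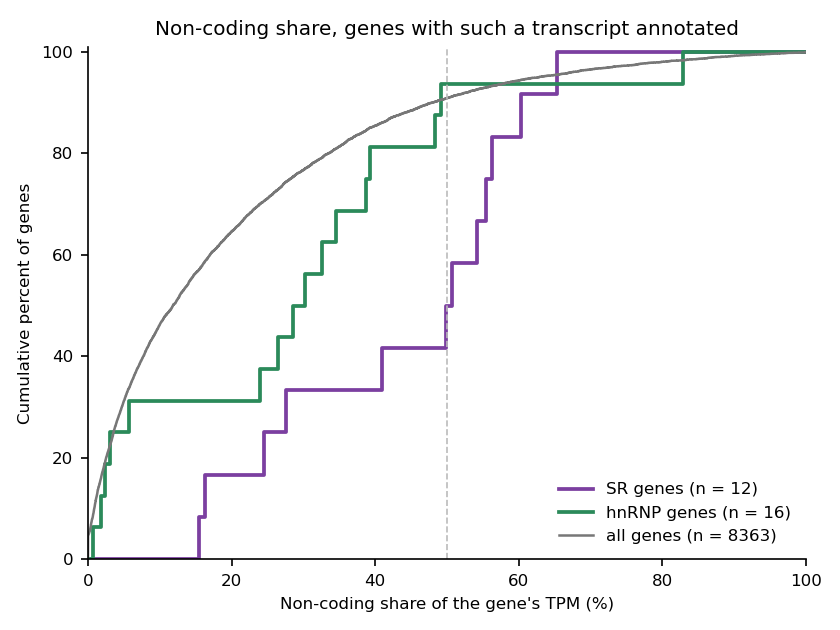
Cumulative percent of genes (vertical) against non-coding share of the gene's TPM (horizontal, mean of both animals), for SR genes, hnRNP genes and all detected nuclear protein-coding genes that have a non-coding transcript annotated. The SR curve starts at 15.5%, and the dashed line marks a share of 50%.

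By type, the NMD share had a median of 16.2% over the 21 members with such a transcript, against 3.63% over 3057 genes. Retained introns had a median of 14.6% over 24 members, against 6.23% over 6277 genes. Processed transcripts, annotated without a reading frame, had a median of 16.5% over 11 members, against 3.97% over 4908 genes. All 3 types therefore stood above the level over all genes. Within SR genes, retained introns had a median of 16.5% (10 genes), and within hnRNP genes 4.52% (14 genes). The hnRNP value thus lay below the 6.23% over all genes. In the second transcript table it was 7.01%, against 7.27% over all genes. The NMD medians of SR genes (15.8%, 11 genes) and hnRNP genes (16.8%, 10 genes) stood side by side. Extra exons were counted in 8 SR genes and 2 hnRNP genes, and no such count was made over all genes. In Srsf11, Srsf7 and Hnrnpl the NMD transcripts with such an exon took a mean of only 1.11%, 1.19% and 2.59%. The libraries hold total RNA, in which unspliced and spliced RNA are both sequenced.

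**Figure D3:**
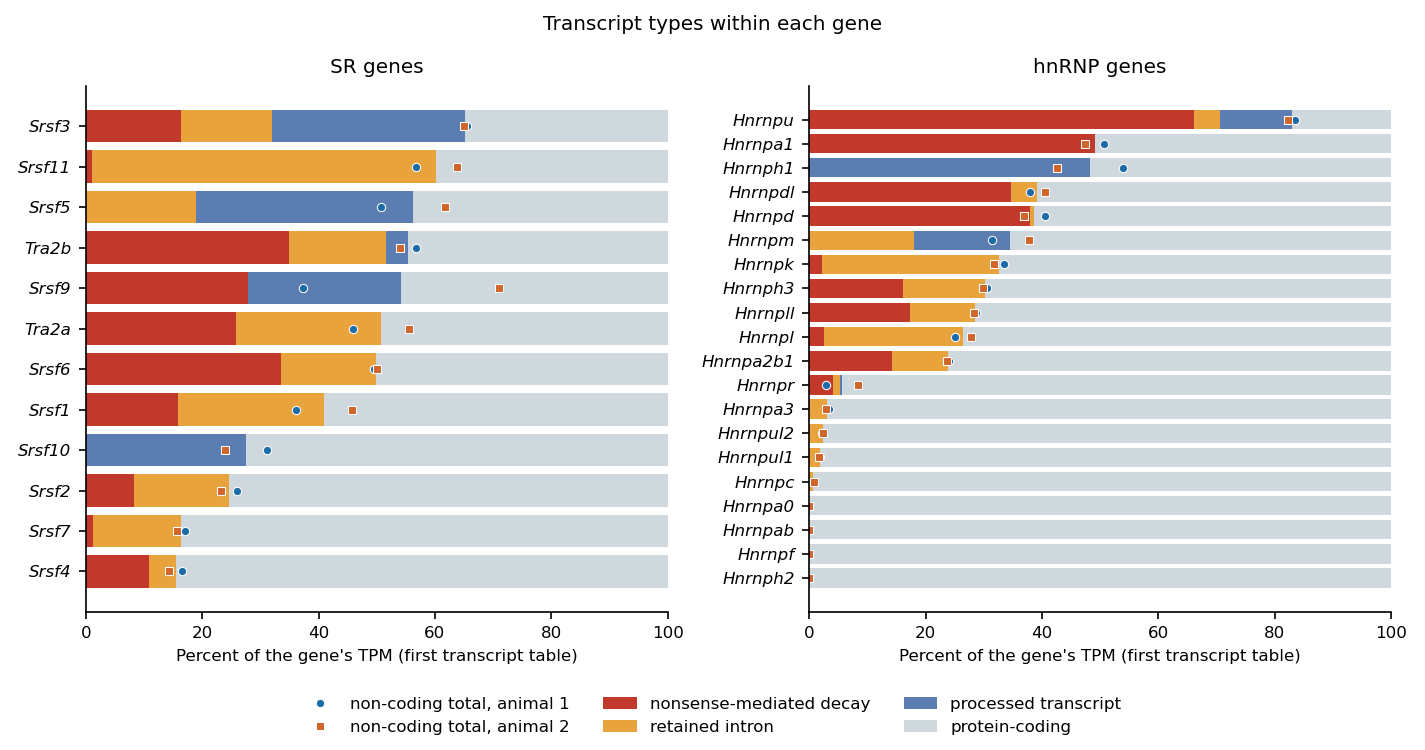
Percent of each gene's TPM (horizontal) on NMD, retained intron, processed and protein-coding transcripts, as the mean of both animals, with the non-coding total of animal 1 (circles) and animal 2 (squares). Hnrnpu has the longest NMD bar, Srsf11 the longest retained intron bar, and Hnrnpa0, Hnrnpab, Hnrnpf and Hnrnph2 have none.

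Hnrnpu had the highest non-coding share, 83.6% in animal 1 and 82.2% in animal 2. A single NMD transcript, Hnrnpu-206, held 60.2% of the gene in animal 1 and 57.1% in animal 2, with a stop in exon 14 that the longest form does not use and 3 introns after it. It is 2844 nt long, and the full-length Hnrnpu-201 is 7640 nt. Counted in reads the share was lower, 60.4% in animal 1 and 57.5% in animal 2, because TPM gives a shorter transcript more weight per read. The second transcript table, deposited in the layout of another quantifier, put Hnrnpu-206 at 52.1% and 46.7% in animals 1 and 2.

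In Srsf3 the share was 65.5% in animal 1 and 65.0% in animal 2. The NMD transcript Srsf3-201, whose exon 4 is shown above, took 17.4% and 15.4% in animals 1 and 2. The 518 nt processed transcript Srsf3-209 took 34.1% and 32.4%, from 120 and 108 reads. The second table gave Srsf3-209 8.18% and 2.10%, so its level depended on the table, while Srsf3-201 had 26.3% and 25.2% there in animals 1 and 2. Srsf11 stood at 56.8% in animal 1 and 63.8% in animal 2, nearly all on retained introns. Of these, Srsf11-208 led in animal 1, with 17.0% there and 12.8% in animal 2. Srsf11-211 led in animal 2, with 14.1% there and 11.7% in animal 1. The NMD transcripts of Srsf11 with extra exons took 1.78% and 0.430% in animals 1 and 2, and 5.11% and 2.60% in the second table.

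Srsf5 had 50.7% in animal 1 and 61.7% in animal 2, led by the 886 nt processed transcript Srsf5-206 with 31.6% and 36.4%. The second table put Srsf5-206 at 20.1% and 22.9% in animals 1 and 2. The NMD transcript of Srsf5 was at 0 in both animals in the first table and at 2.10% and 1.27% in the second. Tra2b had 56.7% and 54.0% in animals 1 and 2, and Tra2b-206, with the exon shown above, took 33.8% and 23.6%. In Tra2a the share was 45.9% in animal 1 and 55.5% in animal 2, with 22.5% and 29.3% on Tra2a-202 and a further 19.5% and 22.5% on the retained intron transcript Tra2a-203. Both Tra2 genes thus carried their exon 2 NMD form at more than 20% of the gene in each library and table. The second table put Tra2a-202 higher, at 49.6% and 42.2% in animals 1 and 2.

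Srsf9 had the widest spread, with 37.4% in animal 1 and 71.0% in animal 2. Its NMD transcript Srsf9-205 held 15.8% and 40.0% in animals 1 and 2, which is 42.4 and 90.2 expected reads. Srsf6 stood just under the 50% line, at 49.6% in animal 1 and 50.1% in animal 2, with Srsf6-201 at 34.0% and 33.1%. The second table put Srsf6-201 at 42.3% and 39.4% in animals 1 and 2. Just outside the line were also Hnrnpa1, at 50.8% and 47.5% in animals 1 and 2, and Hnrnph1, at 53.9% and 42.7%; just inside it was Tra2a, with a mean of 50.7%.

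Hnrnpa1 showed the other kind of NMD transcript. Hnrnpa1-203 and Hnrnpa1-204 end on the same stop as the full-length form, with 2 and 3 introns after it. They held 38.6% and 12.2% of the gene in animal 1, and 36.0% and 11.5% in animal 2. The same arrangement, with 2 introns after the full-length stop, took 14.4% and 14.0% of Hnrnpa2b1 in animals 1 and 2 through Hnrnpa2b1-209. It took 30.3% and 25.0% of Hnrnpd, a factor of AU-rich RNA decay also called AUF1, through Hnrnpd-208, which had 9.03% and 8.10% in the second table. The second table gave Hnrnpa2b1-209 0 in both animals and the same gene's Hnrnpa2b1-207, with the same stop, 13.0% and 11.4%. For this gene the kind of ending was steady between tables and the transcript was not. Of SR genes only Srsf2 had NMD transcripts of this kind, at 9.54% and 6.97% in animals 1 and 2, and near 0 in the second table.

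At the low end, Hnrnpa0, Hnrnpab, Hnrnpf and Hnrnph2 had a share of 0, as no non-coding transcript is annotated for them. Of those that have one, Hnrnpc, which binds U-rich runs, had 0.602% in animal 1 and 0.808% in animal 2. Hnrnpul1 had 1.79% and 1.77%, Hnrnpul2 2.24% and 2.37%, and Hnrnpa3 3.34% and 2.85% in animals 1 and 2. The lowest SR gene, Srsf4, was at 16.6% and 14.3% in animals 1 and 2, above all of these. Its NMD transcripts took 10.9% and 10.7%. All other members lay between a mean of 5.65% (Hnrnpr) and 40.9% (Srsf1). Among these, Hnrnpdl had 37.9% and 40.5% in animals 1 and 2, most of it on the NMD transcript Hnrnpdl-205, which took 29.4% and 32.4% in the first table and 32.1% and 36.1% in the second.

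Shares over 50% were seen in 7 members in animal 1 and 8 in animal 2, and in 5 of them in both: Hnrnpu, Srsf3, Srsf11, Srsf5 and Tra2b. Counted in reads, Srsf11 (45.6% and 47.7% in animals 1 and 2) and Tra2b (41.8% and 38.1%) were under that line, and the other 3 stayed above it. The shares of 3 of 28 members differed by 10 points or more between the animals, against 14.6% of all 8077 genes averaging 100 counts or more. These were Srsf9 and Srsf5, which were lower in animal 1, and Hnrnph1, which was higher in animal 1. The median difference of the members, 2.67 points, equalled that of all genes compared (2.67 points).

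In the second transcript table, shares over 50% were found for 8 members, against 10.2% of all detected genes and 12.5% of those with a non-coding transcript annotated. These 8 were 6 of 12 SR genes and 2 of 20 hnRNP genes. Over 50% in both tables were 6 members. The tables disagreed most for Hnrnph3, whose mean share was 61.5% in the second table and 30.2% in the first. In the second table Hnrnph3-204, an NMD transcript, held 51.6% and 52.7% in animals 1 and 2, and in the first 19.1% and 13.2%. Hnrnpr had 31.0% in the second table against 5.65% in the first, and Tra2a 72.4% against 50.7%. The opposite was found for Hnrnpd (12.6% against 38.7%) and Hnrnpk (8.92% against 32.6%). In Hnrnpk the first table gave 19.2% and 15.9% in animals 1 and 2 to Hnrnpk-215, a retained intron fragment of 522 nt, and the second 0.0829% or less. A different transcript led the gene in the second table for 15 of 32 members. No such count over all genes is given here, so it is not shown to be particular to these genes.

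**Figure D4:**
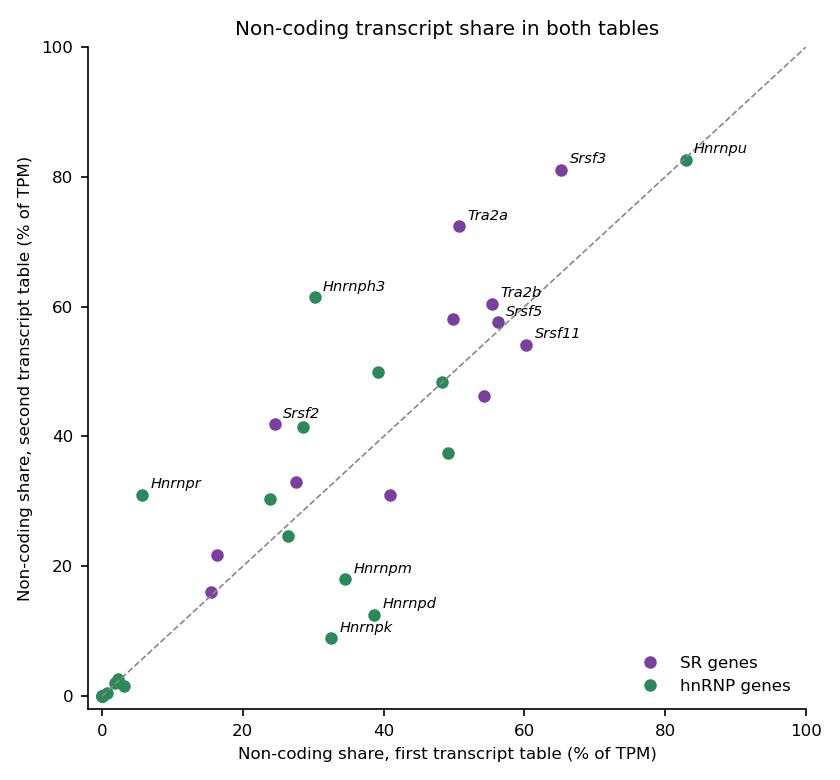
Mean non-coding share of each detected member in the second transcript table (vertical) against the first (horizontal), in percent of the gene's TPM, with the dashed line at equality. Hnrnph3, Hnrnpr and Tra2a lie above the line, and Hnrnpd and Hnrnpk below it.

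Gene levels also differed between the tables. The second table gave a median of 1.48 times the TPM of the first over 10173 genes. After centring on that median, the largest differences (log2, second over first table) were 0.70 for Hnrnpr, -0.30 for Hnrnpd, 0.28 for Hnrnpc, 0.26 for Srsf11 and 0.25 for Hnrnph3. Hnrnpr, a relative of Syncrip, had 25.0 and 25.3 TPM in the second table in animals 1 and 2, and 11.2 and 9.69 TPM in the first. Exons of 14 members overlap exons of another gene, on the opposite strand in 11, and for 6 that gene was at 1 TPM or more. Overlaps were counted for members only, so they are not shown to be more common here than over all genes. The highest of the overlapping genes was March2, on the same strand as Hnrnpm, with 34.2 and 32.5 TPM in animals 1 and 2, beside 29.7 and 34.3 TPM for Hnrnpm. On the opposite strand were Cox20 for Hnrnpu (16.8 and 22.9 TPM in animals 1 and 2) and Mettl23 for Srsf2 (16.7 and 15.4 TPM), and no strand setting is given in the sources used here.

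The animals were set against each other as log2 of animal 1 over animal 2, from expected counts scaled with TMM. The libraries held 45014831 counts on genes in animal 1 and 47771308 in animal 2. None of 32 members was 2-fold or more apart, against 2.97% of the 10872 genes averaging 100 counts or more (2.18% with the higher value in animal 1, 0.791% in animal 2). With 1 library per animal there is no test, and the 95% intervals cover counting error only. The members' median was -0.06, that of SR genes -0.04, that of hnRNP genes -0.08 and that of all genes -0.02. By size alone the median was 0.08 for members and 0.14 for all genes.

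**Figure D5:**
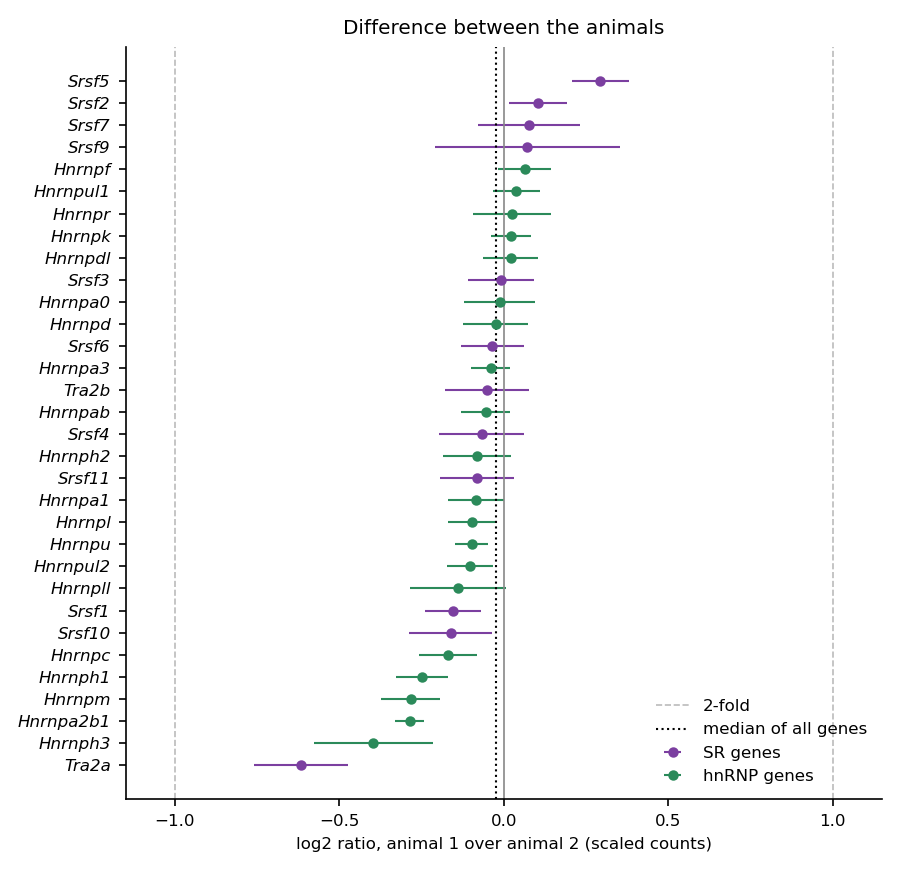
Log2 ratio of animal 1 over animal 2 for each detected member, from scaled counts, with 95% exact binomial counting intervals. Dashed lines mark 2-fold and the dotted line the median of all genes; Srsf5 stands at the top and Tra2a at the bottom, both inside the 2-fold lines.

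Tra2a was the furthest apart, with 667 counts in animal 1 against 1006 in animal 2 and a ratio of -0.62 (interval -0.76 to -0.47). Hnrnph3 followed at -0.40 (-0.58 to -0.22), from 445 and 576 counts in animals 1 and 2. Hnrnpa2b1 was at -0.29 (-0.33 to -0.24), from 7175 and 8605 counts. All 3 were lower in animal 1. Srsf5 was higher in animal 1, with 2383 counts against 1911 in animal 2 and a ratio of 0.29 (0.21 to 0.38). Srsf2 (0.10, interval 0.02 to 0.19) and Srsf7 (0.08, interval -0.08 to 0.23) were the next. The sign of Srsf2 and Srsf7 turned with spike-in scaling, to -0.10 and -0.12.

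Another scaling of the counts moves every ratio by the same step, so the sign of a ratio near 0 depends on it. The median of all genes was -0.22 with spike-in sums and 0.09 with library size alone. It was 0.09 for ratios of TPM, which also take in transcript length and so move each gene by its own step. Of 32 members, 8 had 1 sign under every count scaling, the other prior count, the second table and TPM. These were Srsf5, higher in animal 1, and Tra2a, Hnrnph3, Hnrnpa2b1, Hnrnpm, Hnrnpc, Srsf1 and Hnrnpll, lower in animal 1. The interval of Hnrnpll included 0 (-0.29 to 0.007), and its ratio was -0.03 with library size alone and -0.02 by TPM. No count of genes with 1 sign over all genes is given here. Counting intervals excluded 0 for 13 of 32 members, against 47.8% of the 10872 genes.

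By their medians (log2 ratios of -2.50, 3.51 and 3.08), slow fibre, adipocyte and Schwann cell markers were further apart between the animals than any member. Of all genes, 2.18% were 2-fold or more higher in animal 1 and 0.791% in animal 2. All 11 genes listed for fast fibres, the main fibres of the gastrocnemius, were detected, with a summed 78881 TPM in animal 1, against 76353 TPM in animal 2. The list includes Acta1 (16629 and 16341 TPM in animals 1 and 2) and Ckm (11491 and 11535 TPM), which are not limited to fast fibres. Its sum is therefore not a measure of fast fibres alone. The 8 slow fibre genes summed to 873 TPM in animal 1, against 3624 TPM in animal 2, and 8 of 8 were 2-fold or more lower in animal 1. Of 12 adipocyte genes 9 were 2-fold or more higher in animal 1, where the list summed to 1201 TPM, against 583 TPM in animal 2. Lpl went the other way (194 and 293 TPM in animals 1 and 2), and Slc2a4 hardly differed (177 and 180 TPM). Both weigh heavily in these sums. The 12 Schwann cell genes summed to 262 TPM in animal 1, against 36.2 TPM in animal 2, and all 8 with enough counts were 2-fold or more higher in animal 1. Fibroblast genes summed to 1160 and 867 TPM in animals 1 and 2 (1 of 8 past 2-fold, higher in animal 1), endothelial genes to 107 and 81.0 TPM (1 of 8) and macrophage genes to 66.4 and 41.9 TPM (0 of 7). The part of these differences in the ratios of Tra2a, Hnrnph3 or Srsf5 was not tested.

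All 10 kinases and phosphatases that act on SR proteins were detected, with a median of 15.0 TPM. Their median non-coding share was 45.5%, against 7.32% over all detected genes, and the lowest was Dyrk1a with 1.03%. Prpf4b (84.0%), Clk1 (82.0%), Srpk1 (58.1%) and Clk4 (53.0%) were over 50%, against 7.44% of all detected genes. Clk1 is known to retain introns in its own RNA in nuclei. The highest were Ppp1ca, a catalytic subunit of protein phosphatase 1, with 77.1 TPM in animal 1 and 71.9 TPM in animal 2, Dyrk1a (35.1 and 33.8 TPM) and Clk1 (17.1 and 16.6 TPM). Srpk3, the muscle kinase of SR proteins, had 12.8 and 14.8 TPM in animals 1 and 2 and a share of 18.5%.

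Among 22 SR-related factors 20 were detected, with a median of 15.2 TPM, a median share of 31.7% and 6 genes over 50%, against 7.44% of all detected genes. By the mean of both animals Rsrp1 led, with 57.4 TPM in animal 1 and 83.8 TPM in animal 2, followed by Srrm2 (72.2 and 63.7 TPM) and Luc7l2 (42.7 and 48.2 TPM). In animal 1 alone Srrm2 was above Rsrp1. The factors that carry out nonsense-mediated decay were all detected (15 of 15), with a median of 9.61 TPM. Their own median share was 8.69%, and Rbm8a, a core subunit of the exon junction complex, was the gene over 50% (59.2%). Eif4a3 (16.2 and 18.5 TPM in animals 1 and 2) and Smg5 (16.6 and 17.3 TPM) were the highest. No gene of these 3 lists was 2-fold apart between the animals, against 2.97% of all genes.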

How the data were processed

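Per the file headers, each library has a gene table and a first transcript table in the layout that RSEM writes, and a second transcript table in the layout that kallisto writes. The authors deposited expected counts and TPM in the first 2, with a posterior SD of each count, a score of how certain the assignment is. The first transcript table also gives each transcript's percent of its gene, per the file headers, and the second, as deposited, holds estimated counts and TPM. Build mm10 and annotation GENCODE M21 are named in the deposited lists; the aligner and counter are not given in these sources. TPM has a fixed sum, and reads of a cross of B6 and CAST mice were counted on the B6 reference, which may lose CAST reads.

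Genes were matched by identifier; all 33 were found in each table and in GENCODE M21. A gene was detected at 1 TPM or more in both animals. Shares were summed from transcript TPM by annotated type, which the second table's names give. Expected counts were rounded for the ratio, scaled with edgeR's TMM, and given a prior count of 0.5. A gene was called apart at 2-fold with a mean count of 100 or more; 95% intervals are exact binomial. These intervals, and the limit that 3 counts allow, reflect counting error alone. In the gene table, 26248 rows with no gene name (6.63e-06% of reads in animal 1 and 1.04e-05% in animal 2) and the spike-ins stayed out of library sizes. The procedure was tested on simulated data.

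The members, the 13 lists and the alternatives were chosen with earlier results of these data known. Named in full were the 6 SR and 8 hnRNP genes of highest mean TPM and all members under 10 TPM. So were the 8 highest and 4 lowest shares (among genes with a non-coding transcript annotated) and the 3 ratios furthest in each direction. Also named were the 5 members on which the tables differ most and the 4 largest posterior SDs relative to the count. Srsf4, Srsf7, Srsf2, Hnrnpd, Hnrnpll, Srpk3 and others were also described after their values were seen. The highest genes of each list of splicing factors were named, and one gene is not reported here. Alternatives were other scalings (DESeq2 size factors, library size, spike-ins), a prior count of 5, other filters, the second table, counts in place of TPM, NMD transcripts counted as coding, and each animal left out. Scaling factors came from R 4.3.3 with edgeR 4.0.16 and DESeq2 1.42.0. All other values, the ratios and their intervals among them, came from Python 3.11.15 with the packages scipy 1.17.1, pandas 2.3.3 and numpy 2.4.6. Figures came from matplotlib 3.10.9.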

Additional observations from a re-analysis of the deposited data

How the results depend on the processing

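No paired analysis was possible because the 2 libraries form 1 group. No member was 2-fold apart under any scaling, prior count, table or filter tried, and 32 members were detected under each setting except a minimum of 5 TPM (31). The count of all genes 2-fold apart, 323, became 1203 with a mean count of 10 or more and 6609 with no filter. The median ratio of the members, -0.06, became 0.049 with library size alone and -0.26 with spike-ins, and the median of all genes moved by the same steps. In the second table the median level was 19.5 TPM for all 13 SR genes (12.7 in the first table) and 50.1 TPM for hnRNP genes (33.3); with each animal left out they ranged from 12.4 to 13.6 TPM and from 33.2 to 34.8 TPM. Summed shares in the second table and by expected counts were 0.0549% and 0.0490% for SR genes, 0.192% and 0.171% for hnRNP genes, and 0.246% and 0.220% for all members. The median non-coding share of SR genes was 38.1% by expected counts and 25.0% with NMD transcripts counted as coding, and ranged from 41.6% to 52.1% with each animal left out, the lower without animal 2. That of hnRNP genes was 15.3% in the second table, 12.9% by expected counts, 2.70% with NMD transcripts counted as coding and 15.2% without transcripts under 600 nt, a setting chosen after seeing the data. With NMD transcripts counted as coding, 2 members were over 50%. Other settings gave 5 to 8, and by expected counts the 5 were Hnrnpu, Srsf3, Srsf5, Srsf9 and Tra2a. The cause of these shifts was not tested. Counting error, the spread between 2 libraries and the choice of table and unit limit each value.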

Other observations

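The 21 hnRNP proteins with other symbols had 19 members detected, at a median of 11.6 TPM and a median non-coding share of 20.1%. Pcbp2, a C-rich RNA binder, had 176 TPM in animal 1 and 164 TPM in animal 2, above every gene of the 2 families described. Msi2 (66.9 and 69.2 TPM in animals 1 and 2) and Pcbp1 (48.7 and 46.0 TPM) followed. Tardbp, which encodes TDP-43 and is known to control its own RNA through splicing, was the gene over a share of 50% (65.8%). All 14 factors that recognise splice sites as parts or partners of U1 and U2 were detected; their median level was 19.5 TPM and their median share of 12.1%, with none over 50%. Sf1 (35.4 and 34.2 TPM in animals 1 and 2), Snrnp70 (32.6 and 31.5 TPM) and Sf3b2 (27.6 and 28.3 TPM) were the highest. The 5 nuclear import genes had a median of 14.5 TPM and a median share of 12.6%, with none over 50%, and Ran (28.9 and 33.7 TPM), Kpnb1 (23.3 and 21.1 TPM) and Tnpo3 (14.5 and 14.6 TPM) led in animals 1 and 2. No gene of these lists was 2-fold apart between the animals, against 2.97% of all genes.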
